A study of Mus musculus with 64 samples.

Results

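The genes described here are 7 genes of the naive pluripotency network: Esrrb and Tfcp2l1, which are known targets of the WNT pathway, and Tbx3, Prdm14, Zfp42, Nr5a2 and Dppa3. They were chosen by name, out of 21938 protein-coding genes of the mouse annotation, with earlier results of these data known. A peak was assigned to a gene when its summit, the base with the most signal, lay in the gene body or within 30 kb of it on the mm10 build. Over all 60 peak lists 6324 peaks fell in these 7 windows, and 983 of them were among the 20000 strongest of their library.

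The naive pluripotent state is held by a set of transcription factors that activate each other's genes. In the WNT pathway, β-catenin escapes degradation, enters the nucleus and binds TCF and LEF proteins on DNA. TCF7L1 (TCF3 in the labels) acts mainly as a repressor in embryonic stem cells, and relief of its repression by β-catenin is known to raise Esrrb, Tfcp2l1 and other naive genes. The inhibitor of GSK3 in naive culture medium works through this route. SOX2 binds many of the same enhancers together with the POU factor OCT4. Among the 7 genes, Esrrb and Nr5a2 encode nuclear receptors without a known hormone ligand, Tfcp2l1 a grainyhead-like factor and Tbx3 a T-box factor. Prdm14 encodes a regulator that restrains FGF signalling and DNA methylation. Zfp42 (REX1) is a classical marker of naive cells, and Dppa3 (STELLA) encodes a protein that protects DNA from methylation changes.

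Binding was measured by ChIP-seq of SOX2, β-catenin, LEF1, TCF7L1 and TCF7L2 (TCF4 in the labels) in 4 conditions, with 3 biological replicates of each, all labelled 72 h. Naive embryonic stem cells (naive ESC) and caudal epiblast-like cells (CEpiLC) were wild-type XY HM1 TetON cells of strain 129. Naive ESC were held in 2i, which is N2B27 with CHIR99021 and the MEK inhibitor PD0325901. CEpiLC were made in N2B27 with bFGF and LGK974, a blocker of WNT secretion, and then received CHIR99021 as well. SOX2-ON and SOX2-OFF were SOX2-TetON cells, in which both copies of the gene for SOX2 were ablated (Sox2-/-) and a doxycycline-inducible Sox2 transgene stood in the HPRT locus, with the rtTA activator at Rosa26. This line was derived from a single clone, and it was differentiated as CEpiLC with doxycycline at 1 µg/ml (SOX2-ON) or after its withdrawal (SOX2-OFF). By design, naive ESC and SOX2-ON had high SOX2, whereas CEpiLC and SOX2-OFF had low SOX2. Naive ESC and CEpiLC differed in medium and cell state as well as in SOX2, and the effects of these cannot be told apart. The comparisons ask whether SOX2 level goes with the binding of SOX2 and of the WNT mediators at naive genes.

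Each peak list held between 1628 and 991719 peaks, and the number of reads behind it was not known. In 10 libraries the list was shorter than 20000 peaks, and 9 of these were from CEpiLC or SOX2-OFF, which makes absence easier to call in those conditions. The shortest was CEpiLC TCF7L1 replicate 1 with 1628 peaks. Strength was therefore expressed as the rank of the strongest peak in a window, where rank 1 is the peak with the highest deposited fold enrichment in that library. A window with no peak among the 20000 strongest was ranked just after the last of them and is called "none" here.

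Sequences around the summits of the sites that the results turn on are shown first. They are 121 bases of the plus strand of GRCm38 (mm10), 5′ to 3′, centred on the median summit. Capitals mark words searched on both strands: CATTGT or CTTTGT for SOX, CTTTGAA or CTTTGAT for TCF and LEF, ATGCAAA for OCT, AAGGTCA for the receptors ESRRB and NR5A2, and GGGTGTGG or GGGCGTGG for KLF. The Tfcp2l1 site lies 2288 bp before the gene's start, at chr1:118625597-118625717, and is intergenic. Of the Esrrb sites, the one listed for β-catenin and TCF7L1 in every condition but CEpiLC lies in an intron 109984 bp after the start (chr12:86471041-86471161), and the one held in every condition by SOX2 lies in an intron 137853 bp after it (chr12:86498910-86499030). The Tbx3 site is intergenic, 24399 bp after the start (chr5:119695008-119695128). The Prdm14 downstream site is intergenic, 42114 bp after the start (chr1:13084989-13085109), and its upstream site is intergenic, 5085 bp before it (chr1:13132188-13132308). The Zfp42 site is intergenic, 13862 bp before the start (chr8:43320782-43320902). The Nr5a2 site is intronic, 6633 bp after the start (chr1:136953755-136953875), and the Dppa3 site is intergenic, 1716 bp before the start (chr6:122624634-122624754).
Tfcp2l1 upstream site: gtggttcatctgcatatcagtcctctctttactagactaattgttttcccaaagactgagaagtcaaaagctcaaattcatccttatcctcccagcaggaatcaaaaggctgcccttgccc
Esrrb intron site at 110 kb: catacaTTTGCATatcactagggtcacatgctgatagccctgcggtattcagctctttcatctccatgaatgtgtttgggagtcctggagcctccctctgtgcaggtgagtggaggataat
Esrrb intron site at 138 kb: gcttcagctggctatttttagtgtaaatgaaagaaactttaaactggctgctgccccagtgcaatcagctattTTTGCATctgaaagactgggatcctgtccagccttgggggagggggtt
Tbx3 downstream site: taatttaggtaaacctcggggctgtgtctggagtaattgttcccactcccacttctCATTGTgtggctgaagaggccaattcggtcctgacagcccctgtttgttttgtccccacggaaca
Prdm14 downstream site: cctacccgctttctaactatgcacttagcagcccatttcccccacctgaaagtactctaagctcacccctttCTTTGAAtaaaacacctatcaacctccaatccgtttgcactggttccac
Prdm14 upstream site: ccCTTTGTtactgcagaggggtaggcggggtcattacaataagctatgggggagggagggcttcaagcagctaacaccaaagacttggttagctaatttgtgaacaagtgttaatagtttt
Zfp42 upstream site: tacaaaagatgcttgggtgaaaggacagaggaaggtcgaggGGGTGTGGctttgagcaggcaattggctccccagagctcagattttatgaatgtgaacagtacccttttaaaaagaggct
Nr5a2 intron site: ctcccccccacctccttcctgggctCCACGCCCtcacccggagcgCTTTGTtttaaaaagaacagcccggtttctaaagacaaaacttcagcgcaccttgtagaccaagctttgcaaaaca
Dppa3 upstream site: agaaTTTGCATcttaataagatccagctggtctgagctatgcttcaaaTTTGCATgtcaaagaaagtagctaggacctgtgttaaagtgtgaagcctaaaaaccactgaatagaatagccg
The Dppa3 window held 2 OCT words and both Esrrb windows 1 each. The Tbx3, Nr5a2 and Prdm14 upstream windows held a SOX word, the Zfp42 and Nr5a2 windows a KLF word, and the Prdm14 downstream window a TCF word 12 bp from the median summit. The Tfcp2l1 window, the strongest of them in naive cells, held none of the words searched.

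In naive ESC every one of the 7 windows held a peak of SOX2, of β-catenin and of TCF7L1 among the 20000 strongest in 3 of 3 libraries. Over all protein-coding genes 38.4% of windows did so for SOX2, 35.4% for β-catenin and 42% for TCF7L1. In SOX2-ON it was so for 4 of the 7 with SOX2 (33.6% of all), 6 with β-catenin (28.6%) and 7 with TCF7L1 (24.7%). In SOX2-OFF it was so for 4 with SOX2 (32.1%), 4 with β-catenin (12.6%) and 4 with TCF7L1 (28.1%). In CEpiLC it was so for 6 genes with SOX2 (43.2%), for 3 with β-catenin (32.9%) and for 0 with TCF7L1 (6.15%), where the list of 1628 peaks held none of the 7. For LEF1 the count was 3 in naive ESC (22.1%), 4 in SOX2-ON (21.5%), 3 in CEpiLC (18.1%) and 3 in SOX2-OFF (22.4%). For TCF7L2 it was 3 (34.3%), 5 (32.8%), 1 (26.4%) and 0 (20.6%) in the same order. Longer genes have longer windows, and these shares are not matched for length. The geometric mean rank was stronger at high than at low SOX2 in 34 of the 35 pairs of a gene and a target, Dppa3 with SOX2 being the exception. No share over all windows is given for this direction, and the mean joins both cell lines. Naive ESC were stronger than CEpiLC without overlap in 19 pairs and CEpiLC in 1. In the SOX2-TetON line SOX2-ON was stronger without overlap in 5 pairs and SOX2-OFF in 3. No pair passed the test after adjustment, in which the share called over all windows was 0% for each of the 5 targets. The lowest adjusted p of a member was 0.0586 (exact permutation test within cell line, Benjamini-Hochberg over all genes of the target). The smallest p that this exact test allows, 0.005, was reached by 3 of the pairs. At an unadjusted p of at most 0.05 in the same exact permutation test, with the stronger binding at high SOX2, 3 of 7 genes stood out for SOX2, beside 9.89% of all windows. For β-catenin 5 of 7 did, beside 15.2%, for TCF7L1 3 of 7, beside 11.6%, and for TCF7L2 2 of 7, beside 5.54%. For LEF1 it was 0 of 7, beside 4.04%. Zfp42 is in the SOX2 and β-catenin counts but entered those tests only through its 4 high-SOX2 libraries with a peak, having 1 and 0 at low SOX2, so its difference there is a description only. Leaving it out gives 2 of 6 for SOX2 and 4 of 6 for β-catenin. The 34 and 19 pairs above and the medians below still include it. Same-numbered TCF7L1 libraries of SOX2-ON and SOX2-OFF deviated together, and with the replicate number as a block Tbx3 and Prdm14 stayed for TCF7L1 (exact permutation p = 0.0312 each) and Zfp42 did not (exact permutation p = 0.125). The median difference in log10 rank, high minus low SOX2, was -0.245 over the members and 0.0462 over all windows for SOX2, -0.526 and -0.0161 for β-catenin, and -0.416 and 0.00091 for TCF7L1.

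**Figure D1:**
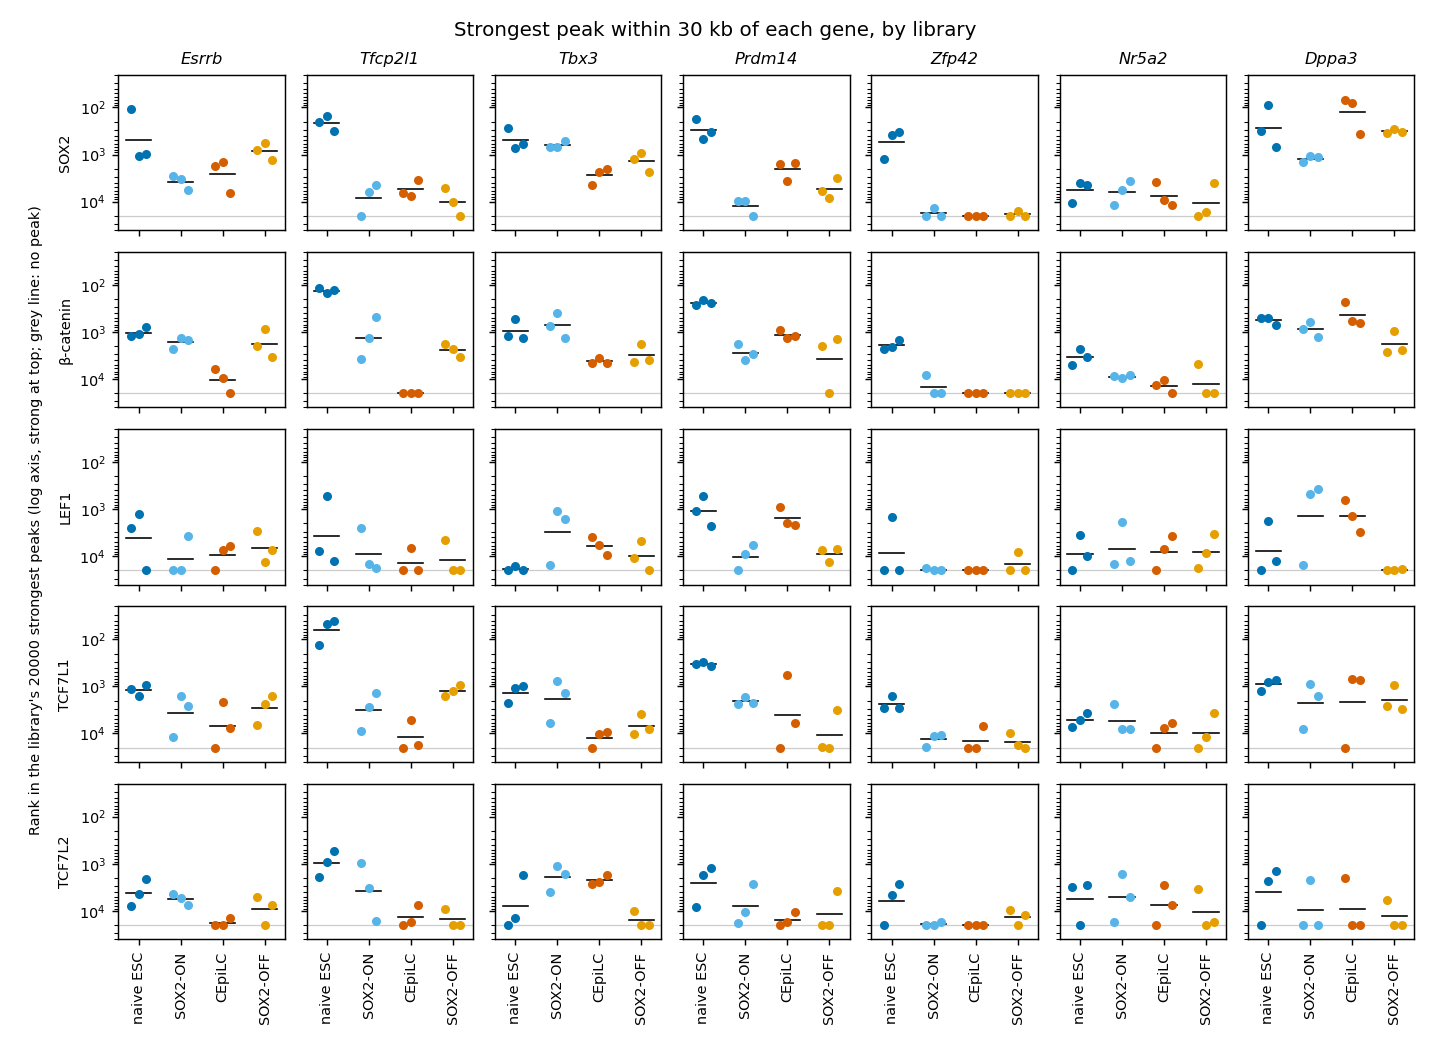
Rank of the strongest peak within 30 kb of each gene, by library, on a log axis with strong peaks at the top; columns are genes, rows are targets, points are the 3 libraries of a condition and bars their geometric means, with libraries without a peak on the grey line. Naive ESC lie above the 3 other conditions for Tfcp2l1, Prdm14 and Zfp42 with SOX2, β-catenin and TCF7L1.

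The 2 cell lines were also read separately. All 3 naive ESC ranks were stronger than all 3 CEpiLC ranks in 19 of the 35 pairs, while all 3 SOX2-ON ranks were stronger than all SOX2-OFF ranks in 5. For SOX2 the naive ESC ranks were stronger without overlap at 5 of 7 genes (14.1% of all windows), for β-catenin at 6 (20.7%), for TCF7L1 at 5 (22.6%), for TCF7L2 at 3 (7.31%) and for LEF1 at 0 (7.09%). The SOX2 and β-catenin counts, and the 19 pairs, include Zfp42. It entered for these 2 targets only through its high-SOX2 libraries, so it is a description only there. SOX2-ON was stronger than SOX2-OFF without overlap at 1 gene for each target: Tbx3 for SOX2 (10.4% of windows), Tbx3 for β-catenin (11.3%), Dppa3 for LEF1 (4.85%), Prdm14 for TCF7L1 (5.7%) and Tbx3 for TCF7L2 (7.56%). In the other direction, SOX2-OFF was stronger for SOX2 at Esrrb, Prdm14 and Dppa3, which are 3 of 7 (13.8% of windows), and CEpiLC was stronger than naive ESC for LEF1 at Tbx3 (9.22%). Each of these contrasts sets 3 libraries against 3, for which the smallest exact permutation p is 0.1, so none could pass 0.05 by itself. The difference between the lines was at an unadjusted p of at most 0.05 in 8 of the 35 pairs and at an adjusted p of at most 0.05 in 0, beside 0% of all windows (exact permutation test of the line labels). By target, SOX2 had 2 of 7 (14.6% of all windows), β-catenin 2 (15.8%), LEF1 2 (6.56%), TCF7L1 1 (11.7%) and TCF7L2 1 (6.73%). Naive ESC were in 2i while both SOX2-TetON conditions were differentiated as CEpiLC, so line cannot be told apart here from medium and cell state.

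Tfcp2l1 had among the strongest naive binding of the set. Its window gave SOX2 ranks of 200, 150 and 322 in naive ESC, none, 6308 and 4514 in SOX2-ON, 6442, 7489 and 3522 in CEpiLC, and 5123, 10290 and none in SOX2-OFF. Naive ESC stood apart and the 3 differentiated conditions overlapped. For β-catenin the ranks were 119, 153 and 130 in naive ESC, 3811, 1369 and 491 in SOX2-ON, none in all 3 CEpiLC libraries, and 1839, 2278 and 3353 in SOX2-OFF. For TCF7L1 they were 134, 47 and 41 in naive ESC, 8958, 2736 and 1382 in SOX2-ON, none, 5076 and 17536 in CEpiLC, and 1638, 1250 and 943 in SOX2-OFF. Among the differentiated cells, both conditions of the SOX2-TetON line thus ranked between naive ESC and CEpiLC for β-catenin, whether doxycycline was present or not. At high against low SOX2 the geometric mean rank was 1329 against 7508 for SOX2 (exact permutation p = 0.04, adjusted p = 0.179), 427 against 6947 for β-catenin (exact permutation p = 0.025, adjusted p = 0.138) and 1913 against 14522 for TCF7L2 (exact permutation p = 0.01, adjusted p = 0.373). For TCF7L1, where SOX2-OFF ranked strongly too, it was 454 against 3885 (exact permutation p = 0.095). For β-catenin the wild-type difference minus the SOX2-TetON difference was -1.93 in log10 rank, so naive ESC and CEpiLC lay further apart, which did not pass after adjustment (exact permutation p = 0.005, adjusted p = 0.206).

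The strongest naive peak of Tfcp2l1 sat at its upstream site. There the deposited fold enrichment of SOX2 was 36.7, 43.9 and 33.1 in naive ESC, 5.18, 3.41 and 13.1 in SOX2-ON, 5.6 in 1 of 3 CEpiLC libraries, and 6.31, 3.54 and 4.4 in SOX2-OFF. TCF7L1 reached 96.8, 107 and 228 in naive ESC, had no peak, 12.8 and 36.2 in SOX2-ON, no peak in CEpiLC, and 6.4, 16.4 and 21.9 in SOX2-OFF. β-catenin reached 72.3, 40.4 and 71.1 in naive ESC, 12.3, 14.1 and 34.4 in SOX2-ON, and 16.1, 5.26 and 11.7 in SOX2-OFF, again with no peak in CEpiLC. Here and at the sites below, the CEpiLC lists of β-catenin held only 20453, 15201 and 10930 peaks. Weak peaks listed in other conditions can lie below their cutoffs. Naive ESC lay above every other library for these 3 proteins. In naive ESC this site was also held by TCF7L2 in 3 of 3 libraries, with folds of 7.42, 15.7 and 19.3, and by LEF1 in 2 of 3. It was the only named site held by naive ESC and missing from CEpiLC for as many as 4 targets. Like the site 17973 bp after the start, it was named for calls of presence in naive ESC and absence from CEpiLC. The lack of strong CEpiLC peaks at both sites follows from that choice and is not a separate result. Intronic sites 17973 bp and 20270 bp after the start were weaker. The first had SOX2 folds of 19.2, 13.4 and 17.5 in naive ESC and a single peak, of 4.42 in SOX2-OFF, elsewhere. The second kept SOX2 in CEpiLC, at 7.05, 7.56 and 11, while β-catenin, at 20.5, 9.46 and 21.4 in naive ESC, had no peak there in CEpiLC.

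Esrrb, like Tfcp2l1, had ranked SOX2 peaks in every condition, in 12 libraries against 10 at Tfcp2l1. In naive ESC Esrrb had the weaker geometric mean rank, 488 against 213. Outside naive ESC Esrrb had stronger geometric mean ranks: 3787 against 8289 in SOX2-ON, 2566 against 5539 in CEpiLC and 838 against 10178 in SOX2-OFF. Its SOX2 ranks were 109, 1076 and 992 in naive ESC, 2851, 3318 and 5743 in SOX2-ON, 1755, 1471 and 6544 in CEpiLC, and 794, 567 and 1306 in SOX2-OFF. The order of the 2 cell lines was opposite: naive ESC ranked more strongly than CEpiLC without overlap, and SOX2-ON more weakly than SOX2-OFF without overlap. High and low SOX2 as a whole did not differ (geometric mean rank 1360 against 1466, exact permutation p = 0.925). The β-catenin ranks were 1252, 1100 and 804 in naive ESC, 2317, 1333 and 1489 in SOX2-ON, 6320, 9665 and none in CEpiLC, and 2000, 863 and 3479 in SOX2-OFF. CEpiLC was the weak condition there, and SOX2-ON and SOX2-OFF overlapped. At high against low SOX2 the geometric mean rank was 1312 against 4408 for β-catenin (exact permutation p = 0.05, adjusted p = 0.187) and 4862 against 12814 for TCF7L2 (exact permutation p = 0.02, adjusted p = 0.394).

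Inside Esrrb, neighbouring intronic sites behaved differently. At the site 137853 bp after the start, SOX2 folds were 23.3, 23.7 and 14.2 in naive ESC, 13.2, 12.5 and 11.7 in SOX2-ON, 13, 14.2 and 7.06 in CEpiLC, and 11.4, 22.2 and 18.1 in SOX2-OFF. SOX2 was thus found in all 12 libraries, the naive ESC values lying above those of SOX2-ON and meeting those of CEpiLC and SOX2-OFF. At another intronic site, 140778 bp after the start, SOX2 reached 42.7, 22.3 and 22.8 in naive ESC and had no peak in any CEpiLC library. β-catenin there reached 28.9, 18.7 and 24.2 in naive ESC and TCF7L1 27.1, 24.2 and 65.3, and CEpiLC had no β-catenin peak and a single TCF7L1 peak, of 3.34. At the site 109984 bp after the start SOX2 reached 15.5, 14.9 and 15.5 in naive ESC, 3.35 and 10.1 in 2 SOX2-ON libraries, 4.74 in 1 CEpiLC library and 7.79 in 1 SOX2-OFF library. β-catenin at that site reached 30.5, 11.2 and 34.3 in naive ESC, 6.2, 14.3 and 20.7 in SOX2-ON, and 12.4 and 11.4 in 2 SOX2-OFF libraries, with no peak in CEpiLC. TCF7L1 reached 40.3, 24.8 and 79.1 in naive ESC, 16.6 and 19.2 in 2 SOX2-ON libraries, and 7.94, 8.39 and 15.3 in SOX2-OFF, again with no peak in CEpiLC. The sites 109984 bp and 140778 bp after the start were named for calls of presence in naive ESC and absence from CEpiLC. The lack of both WNT mediators in CEpiLC there follows from that choice and is not a separate result. In addition, 1 CEpiLC list of TCF7L1 held only 1628 peaks. At the site 109984 bp after the start both conditions of the SOX2-TetON line held both mediators, but absence from these conditions was not part of its naming. A further site, 119720 bp after the start, held weak β-catenin peaks of 8.01, 5.15 and 4.98 in SOX2-ON and of 8.13 and 9.56 in 2 SOX2-OFF libraries, and none in naive ESC or CEpiLC. The SOX2-ON peak of 4.98 had rank 145110, beyond the length of any CEpiLC list of β-catenin.

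Nr5a2, the other nuclear receptor gene, was bound weakly in every condition. Its SOX2 ranks ran from 3720 to none over the 12 libraries, and all conditions overlapped. Its β-catenin ranks were 5016, 2316 and 3487 in naive ESC, 8867, 9726 and 8183 in SOX2-ON, 13756, 10486 and none in CEpiLC, and 4931, none and none in SOX2-OFF. Naive ESC ranked above the rest except for 1 SOX2-OFF library, and the geometric mean rank was 5530 at high against 13362 at low SOX2 (exact permutation p = 0.02, adjusted p = 0.118). At the intron site the SOX2 folds were 11.5, 13.1 and 11.6 in naive ESC, 6.86, 9.7 and 14.2 in SOX2-ON, 7.51, 7.18 and 6.11 in CEpiLC, and 4.33 and 7.55 in 2 SOX2-OFF libraries. β-catenin at the same site was found in naive ESC (12.4, 11 and 13.2) and SOX2-ON (8.58, 4.18 and 9.11) and in no library of CEpiLC or SOX2-OFF. The site was named for β-catenin and TCF7L1 calls in naive ESC and not in CEpiLC, so their absence from CEpiLC follows from that choice. The SOX2-ON peak of 4.18 had rank 27837, beyond the length of any CEpiLC list of β-catenin. SOX2 itself was listed in all 3 CEpiLC libraries there, and SOX2-OFF had the fewest SOX2 peaks. LEF1 was listed in 3 of 3 SOX2-OFF libraries at a site 7472 bp after the start, at 7.19, 4.87 and 8.82, in 2 CEpiLC libraries, at 5.98 and 7.53, and in 1 library each of SOX2-ON, at 3.44, and naive ESC, at 3.68. At a site 8971 bp after the start β-catenin reached 14.3, 13.1 and 14.9 in naive ESC while SOX2 had a single naive peak, of 4.26.

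At Tbx3 SOX2-ON ranked close to naive ESC. The SOX2 ranks were 274, 719 and 594 in naive ESC, 690, 684 and 513 in SOX2-ON, 4484, 2400 and 2008 in CEpiLC, and 1262, 932 and 2307 in SOX2-OFF. Every high-SOX2 library ranked more strongly than every low-SOX2 library, with a geometric mean rank of 552 against 1971 (exact permutation p = 0.005, adjusted p = 0.0586). The β-catenin ranks were 1233, 527 and 1350 in naive ESC, 748, 395 and 1333 in SOX2-ON, 4541, 3684 and 4505 in CEpiLC, and 4406, 1833 and 3909 in SOX2-OFF. Again no high-SOX2 library overlapped the low ones, with 838 against 3654 (exact permutation p = 0.005, adjusted p = 0.0612). Over the alternative settings the adjusted p ran from 0.0461 to 0.338 for SOX2 and from 0.0315 to 0.359 for β-catenin in exact permutation tests, and with only the 5000 strongest peaks it was 0.0461 and 0.0349. For TCF7L1 the geometric mean rank was 1587 against 9270 (exact permutation p = 0.01, adjusted p = 0.197). For TCF7L2 SOX2-ON, at 4009, 1109 and 1628, ranked above SOX2-OFF, at 10354, none and none, and CEpiLC, at 2715, 2434 and 1765, ranked close to SOX2-ON.

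Behind the like ranks of Tbx3 for β-catenin in the 2 high-SOX2 conditions were different sites. In naive ESC β-catenin was highest in an intron 9384 bp after the start, at 30.7, 25.8 and 26, and SOX2 reached 34.1, 23.7 and 27.4 there. In SOX2-ON that site kept SOX2 at 16.9, 17.2 and 28.9 but had β-catenin at 6.34, 6.29 and 16.6. The SOX2-ON β-catenin signal was instead highest at an intergenic site 36114 bp after the start, where it was 27.9, 26.5 and 21.7, against 7.51, 10.5 and 7.8 in naive ESC, 8.33, 8.07 and 3.38 in CEpiLC and 5.56, 6 and 10.5 in SOX2-OFF. SOX2 at this site was 22.2, 22.7 and 29.7 in SOX2-ON and 17.9, 7.37 and 7.25 in naive ESC. TCF7L2 was held there in 3 of 3 SOX2-ON libraries, at 7.09, 8.35 and 12.1, and in 0 of 3 of SOX2-OFF among the 20000 strongest. The printed downstream site had SOX2 in naive ESC (14.6, 27.5 and 20.7) and SOX2-ON (6.74, 11.8 and 6.34) and in no library of CEpiLC or SOX2-OFF. It was named for calls of presence in naive ESC and absence from CEpiLC, so its emptiness in CEpiLC follows from that choice. TCF7L1 was found at that site in naive ESC alone, at 11.4, 11.2 and 28.4. A site 39288 bp after the start was held by SOX2 in all 12 libraries, with folds from 3.85 to 22.4.

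Prdm14 had strong naive SOX2 binding that SOX2-ON did not share. Its SOX2 ranks were 174, 466 and 326 in naive ESC, 9810, 9736 and none in SOX2-ON, 1630, 3717 and 1482 in CEpiLC, and 6091, 8584 and 3167 in SOX2-OFF. SOX2-ON was the weakest condition, below SOX2-OFF without overlap, and so the wild-type and SOX2-TetON lines were ordered in opposite ways here as at Esrrb. The β-catenin ranks were 275, 214 and 247 in naive ESC, 1849, 3896 and 2988 in SOX2-ON, 902, 1345 and 1227 in CEpiLC, and 1968, none and 1416 in SOX2-OFF. For TCF7L1 the geometric mean rank was 829 at high against 6596 at low SOX2, (exact permutation p = 0.005, adjusted p = 0.132). The TCF7L1 ranks were 331, 302 and 362 in naive ESC, 2320, 1702 and 2278 in SOX2-ON, none, 564 and 5950 in CEpiLC, and 19158, none and 3202 in SOX2-OFF.

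The strongest naive β-catenin and TCF7L1 peaks of Prdm14 were at the upstream site, which kept peaks in the other conditions. Those at the other named sites were weaker and rarely seen outside naive ESC. These other sites were named for calls of presence in naive ESC and absence from CEpiLC, so their rarity in CEpiLC follows from that choice. At the downstream site SOX2 reached 38.1, 31.5 and 32.8 in naive ESC, and elsewhere it had 1 peak in each condition, of 7.19 in SOX2-ON, 5.96 in CEpiLC and 5.45 in SOX2-OFF. β-catenin there reached 38.6, 27.3 and 30.8 in naive ESC and TCF7L1 46.3, 44.8 and 87.9. CEpiLC held no β-catenin peak and 1 TCF7L1 peak, of 4.28. Sites 1002 bp before and 18471 bp after the start showed the same pattern more weakly, and neither held a β-catenin or TCF7L1 peak outside naive ESC. The upstream site was chosen after its values were seen, because it was held by the most libraries. β-catenin there reached 55.2, 36.1 and 56.6 in naive ESC, 18.2, 7.88 and 14.2 in SOX2-ON, 21.1, 15.6 and 14.2 in CEpiLC, and 15.4 and 22.1 in 2 of 3 SOX2-OFF libraries. TCF7L1 reached 70.8, 56.7 and 123 in naive ESC, 16.8 and 27.3 in 2 SOX2-ON libraries, 16.3 and 4.73 in 2 CEpiLC libraries, and 9.87 in 1 SOX2-OFF library. Naive ESC was the highest condition for both, and the other conditions overlapped. SOX2 reached 34.5, 31.2 and 25.2 in naive ESC, 7.92, 7.66 and 4.68 in SOX2-ON, 13.3, 9.56 and 16.4 in CEpiLC, and 3.87, 6.16 and 11.5 in SOX2-OFF. LEF1 was found in 3 of 3 libraries of naive ESC, at 7.5, 12.9 and 13.7, and of CEpiLC, at 10.7, 10 and 9.93.

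Zfp42 was bound by SOX2 and β-catenin in naive ESC and in few other libraries. The SOX2 ranks were 1254, 384 and 325 in naive ESC, none, 13883 and none in SOX2-ON, none in all 3 CEpiLC libraries, and none, 15596 and none in SOX2-OFF. The geometric mean rank was 3089 at high against 19189 at low SOX2, a difference that lay in naive ESC and not in SOX2-ON. For β-catenin the ranks were 2330, 2141 and 1464 in naive ESC, with a single further library, SOX2-ON at 8245, holding a peak. For TCF7L1 they were 2821, 1612 and 2837 in naive ESC and 7066 or weaker in every other library (exact permutation p = 0.045, adjusted p = 0.299). At the upstream site in naive ESC SOX2 folds were 22.5, 33.4 and 33, β-catenin folds 22.3, 13.6 and 24.9, and TCF7L1 folds 24.7, 24.9 and 40.2. All naive values of these 3 proteins exceeded those of the other conditions, the highest of which was 9.33, for TCF7L1 in SOX2-ON. The site was named for calls of presence in naive ESC and absence from CEpiLC, so its weakness in CEpiLC follows from that choice. A site 187 bp before the start, at the promoter, held TCF7L1 folds of 12.3, 5.71 and 11.6 and SOX2 folds of 4.68, 11.2 and 12 in naive ESC.

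Dppa3 was the only gene of the set whose geometric mean SOX2 rank was stronger at low than at high SOX2. The SOX2 ranks were 315, 88 and 705 in naive ESC, 1456, 1100 and 1148 in SOX2-ON, 69, 82 and 367 in CEpiLC, and 356, 284 and 330 in SOX2-OFF. The low-SOX2 conditions ranked more strongly, with a geometric mean rank of 203 against 574, which did not pass (exact permutation p = 0.055, adjusted p = 0.205). Within the SOX2-TetON line the ranks did not overlap, SOX2-OFF being stronger, as at Esrrb and Prdm14. The peaks behind these ranks were at different places. At the upstream site the SOX2 folds were 33.1, 47.9 and 25.7 in naive ESC, 11.9, 17.4 and 22.6 in SOX2-ON, 10.5, 14.2 and 18 in CEpiLC, and 16.3, 29.7 and 35.2 in SOX2-OFF. At an intergenic site 28937 bp after the start CEpiLC led, with SOX2 at 39.3, 47.8 and 31.6, against 13.8, 8.78 and 11.2 in naive ESC, 5.73, 4.54 and 10.7 in SOX2-ON, and 8.02, no peak and 16.6 in SOX2-OFF. β-catenin at that site was 37.3, 27.2 and 22.6 in CEpiLC and 17.6, 7.13 and 9.93 in naive ESC, and LEF1 was 12.4, 11.9 and 8.36 in CEpiLC. Both SOX2 and β-catenin were thus higher there in every CEpiLC library than in any other library. TCF7L1 was listed there in 2 CEpiLC libraries, at 14.7 and 12.4, the third list being that of 1628 peaks, and in naive ESC at 7.55, 9.65 and 16.9. At the upstream site TCF7L1 reached 38.7, 36.7 and 90.1 in naive ESC, with 1 CEpiLC peak, of 6.26. The site 28937 bp after the start lies 52.1 kb from the start of Nanog as well, and a further site 17754 bp before Dppa3 lies in an intron of Gdf3, 1.43 kb from the start of that gene. LEF1 was listed at the Gdf3 site in SOX2-ON, at 7.11, 17.1 and 12.2, and in naive ESC replicates 2 and 3, at 9.12 and 10.1. No library of SOX2-OFF or CEpiLC listed it, and the CEpiLC lists of LEF1 held only 4443 to 20451 peaks. Peaks were assigned by distance alone, so the gene that such sites act on is not known from these data.

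**Figure D2:**
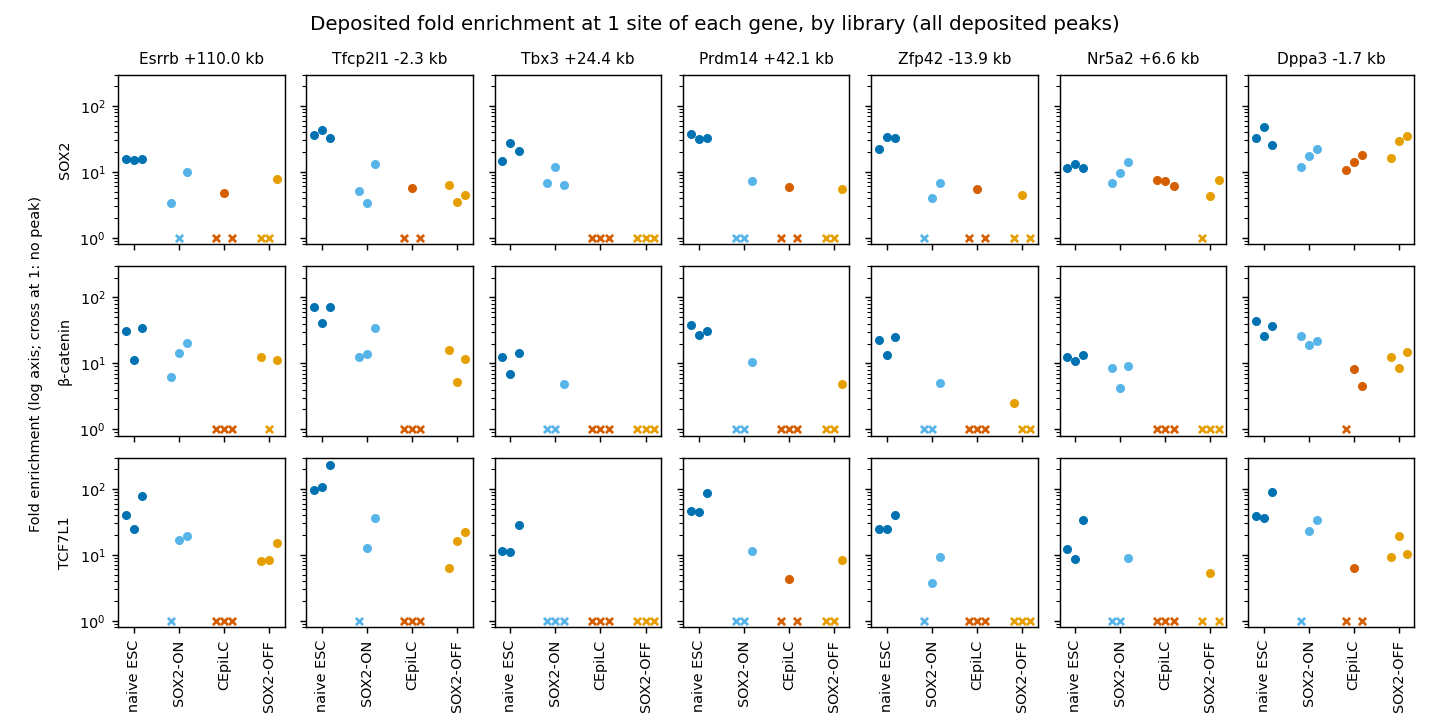
Deposited fold enrichment on a log axis at the leading site of each gene, by library, for SOX2, β-catenin and TCF7L1; points are libraries and crosses at 1 mark libraries without a peak in the whole list. TCF7L1 at the Tfcp2l1 site reaches 96.8 to 228 in naive ESC, and the CEpiLC crosses for β-catenin at every gene but Dppa3 follow from how these sites were named, first by calls such as presence in naive ESC and absence from CEpiLC.

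Joining summits of all libraries over gaps of at most 200 bp gave 344 sites in the 7 windows, of which 250 were seen in a single library and 35 in 6 or more. A site was counted as held by one condition only when 3 of its 3 libraries and 0 of 3 of the other had a summit there among the 20000 strongest. Over the 5 targets together, 43 of 75 tested pairs of a site and a target were held by naive ESC only. That is 57.3%, beside 32.1% of all tested pairs in the genome, and 0 were held by CEpiLC only, beside 16.7%. LEF1 and TCF7L2 gave 2 each of the 75 pairs, but 4241 and 3758 of the 46119 pairs in the genome. Of the 43, 21 were of TCF7L1. Pooled shares are therefore not matched for target, and the shares by target follow below. In the SOX2-TetON line 2 of 31 were held by SOX2-ON only, beside 22.7%, and 1 by SOX2-OFF only, beside 4.43%. All 7 genes had at least 3 naive-only pairs, with 9 each at Tfcp2l1 and Prdm14, 8 at Esrrb, 6 at Tbx3, 4 each at Zfp42 and Nr5a2 and 3 at Dppa3.

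By target, naive ESC alone held 9 of 23 sites for SOX2, beside 17% of all sites, 12 of 23 for β-catenin, beside 29.9%, and 21 of 25 for TCF7L1, beside 71.7%. The TCF7L1 share is close to its background, and 1 CEpiLC list of that target held 1628 peaks. For LEF1 it was 0 of 2 (0.33% of all sites) and for TCF7L2 1 of 2 (7.48%), the Tfcp2l1 upstream site. CEpiLC alone held 0 of these sites for SOX2 (17.9% of all sites), β-catenin (21.6%), LEF1 (42.4%), TCF7L1 (0.81%) and TCF7L2 (15%). SOX2-ON alone held 0 of 10 sites for SOX2, whereas it held 39.1% of all sites, and 0 of 10 for β-catenin, beside 20.8%. It held 0 of 8 for TCF7L1 (6.08%), 1 of 2 for LEF1 (26.6%), at the site in Gdf3, and 1 of 1 for TCF7L2 (5.46%), at Tbx3. SOX2-OFF alone held 0 sites for SOX2 (5.97%), β-catenin (2.68%), TCF7L1 (2.81%) and TCF7L2 (4.5%), and 1 for LEF1 (8.31%), in an intron of Nr5a2.

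**Figure D3:**
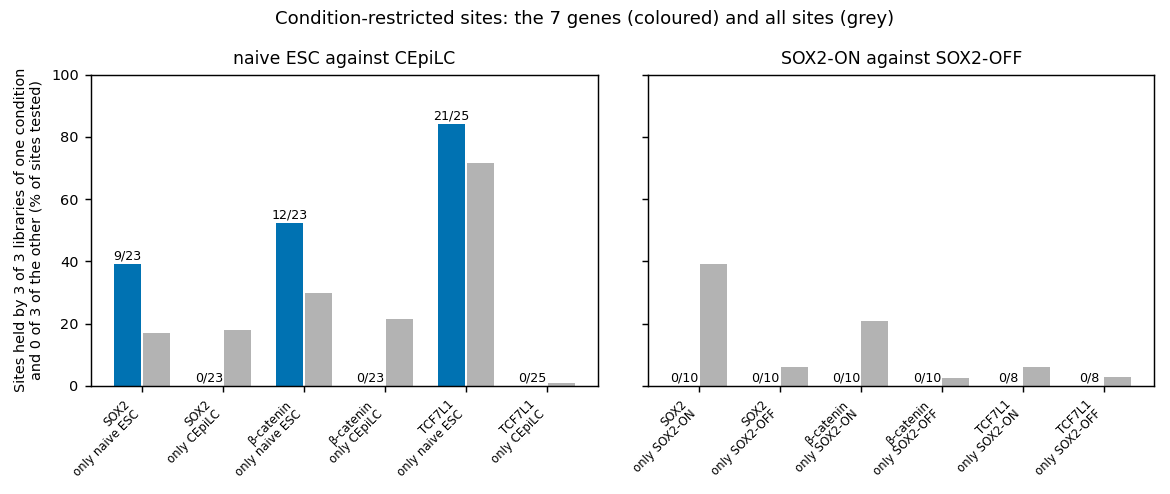
Percent of tested sites held by 3 of 3 libraries of one condition and 0 of 3 of the other, for the 7 genes (coloured, with counts) and for all sites (grey). Naive-only bars reach 39.1%, 52.2% and 84% for SOX2, β-catenin and TCF7L1, and for these 3 targets the SOX2-TetON panel has no coloured bar.

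These counts depend on where absence is judged and on list length. With every list of a target shortened to its shortest, naive ESC alone held 20 of 39 (51.3%, beside 19% of all tested pairs) and CEpiLC alone 1 (2.56%, beside 24.6%). These pooled shares are not matched for target either. With absence judged in all deposited peaks the counts were 35 and 0.

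The 3 proteins often shared sites in naive ESC. There 29 sites in the 7 windows were held by SOX2 in at least 2 of 3 libraries. Of these, 23 (79.3%) were also held by β-catenin and 21 (72.4%) by TCF7L1, where the shares over all SOX2 sites were 55.4% and 60.3%. In SOX2-ON 13 sites were held by SOX2, 8 of them with β-catenin (61.5%, beside 36.1%) and 7 with TCF7L1 (53.8%, beside 40.9%). In CEpiLC 18 were held by SOX2, 9 with β-catenin (50%, beside 38%) and 1 with TCF7L1 (5.56%, beside 11.7%). In SOX2-OFF 9 were held by SOX2, 5 with β-catenin (55.6%, beside 39.4%) and 3 with TCF7L1 (33.3%, beside 36.8%). For β-catenin the members' share was above the genome's in all 4 conditions. LEF1 joined SOX2 at 3 of the 29 naive sites and TCF7L2 at 4. These shares are descriptions over sites, which are not replicates.

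**Figure D4:**
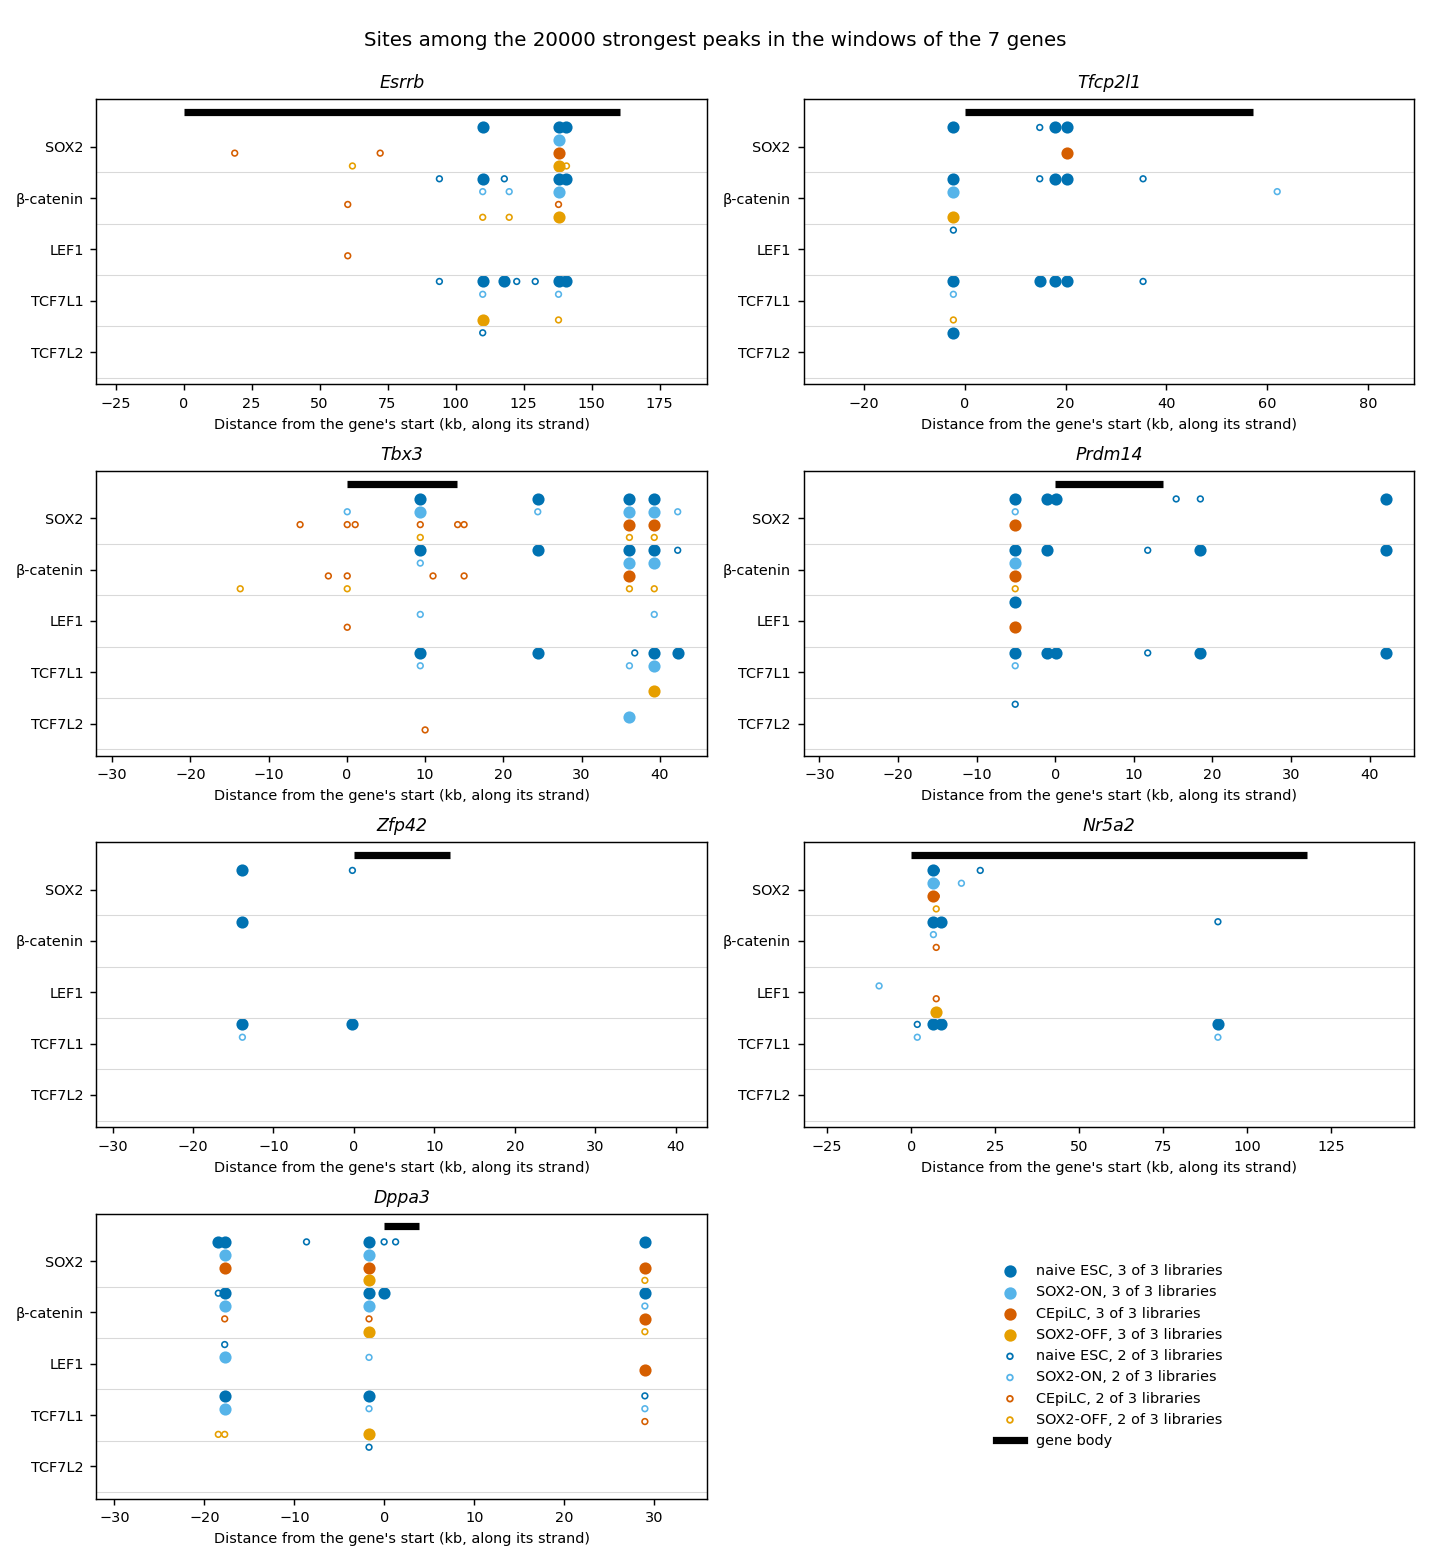
Sites in the 7 windows by distance from the gene's start in kb, along its strand; each row is 1 condition of a target, filled points mark 3 of 3 libraries, open points 2 of 3, and the black bar is the gene body. Naive ESC sites of SOX2, β-catenin and TCF7L1 stack at the same positions, and the Esrrb site at 138 kb and the Dppa3 site at -1.72 kb also carry SOX2 in the other 3 conditions.

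The sequences of the 35 frequent sites were compared with the 29408 sites held by 6 or more libraries anywhere in the genome, in windows of 201 bp. A SOX word was present in 12 of the 35 (34.3%, beside 47% of all), a TCF word in 9 (25.7%, beside 32.3%) and an OCT word in 6 (17.1%, beside 8.39%). The receptor word was present in 2 (5.71%, beside 6.21%) and a KLF word in 5 (14.3%, beside 4.79%). The SOX-OCT composite motif was present in 0, beside 1.39%. A word match is a description of the letters and not of a bound site.

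Other genes of the same pathways were read in the same way, as counts at an unadjusted p of at most 0.05 in the exact permutation test. Of 12 other naive network genes, such as Nanog and Klf4, 2 were stronger at high SOX2 and 2 at low SOX2 for SOX2 (16.2% of all windows were stronger at low SOX2), 3 and 2 for β-catenin (11.6% at low SOX2), and 3 and 1 for TCF7L1 (5.18% at low SOX2). Klf2, a naive factor, had a geometric mean SOX2 rank of 25 at high and 4867 at low SOX2, and Klf5 of 4765 and 1102. Of 10 WNT feedback genes, 0 were stronger at high and 5 at low SOX2 for SOX2, among them Tcf7 (2975 against 80.2) and Lgr5 (3374 against 237). Of 10 caudal epiblast genes, 0 were stronger at high and 7 at low SOX2, among them Nkx1-2 (2591 against 28.2) and Fgf8 (9216 against 905). The caudal list was mixed for the WNT mediators, with 2 stronger at high and 5 at low SOX2 for β-catenin, and 2 and 4 for TCF7L1. The 2 at high SOX2 for β-catenin were Cdx2 (23.5 against 411) and Cdx4 (702 against 8020). Of 7 primed epiblast genes, 2 were stronger at high SOX2, among them Foxd3 (2260 against 13560), and 1 at low SOX2, Pou3f1 (17138 against 5666). The 7 genes described here had 0 members stronger at low SOX2 at this unadjusted threshold. For SOX2, β-catenin and TCF7L1 this stands beside 16.2%, 11.6% and 5.18% of all windows, to which 0 of 7 is close. The other naive network genes, the WNT feedback list and the caudal list had members at low SOX2 for all 3 of these targets. No difference between the lists was tested.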

How the data were processed

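The deposited lists of 60 ChIP-seq libraries were used. Per the labels and the study's methods, the authors aligned single-end reads of 76 bp to mm10 with BWA in the nf-core pipeline and called peaks per library with MACS2 at a q-value under 0.05, without pooling replicates. The deposited fold is a ratio of signal to local background, and the authors' −log10 p-value, −log10 q-value and score (10 times the −log10 q-value) stand beside it. The 4 inputs had no list analysed here. No read counts were used, so depth is unknown and no counting interval can be given.

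Groups came from the labels. Peaks were ranked by fold within a library and cut at 20000. A gene entered the test of a target when at least 3 of its 12 libraries had a peak in its window (GENCODE M21, gene body and 30 kb either side). Mean log10 ranks at high and low SOX2 were compared by an exact two-sided permutation test within cell line (400 assignments), and the cell lines by permuting their labels within SOX2 level, with Benjamini-Hochberg adjustment over all genes. Summits within 200 bp were linked into sites, which were tested for a call when at least 3 of 6 libraries held them. Up to 4 sites per gene were named, first those called for at least 2 targets in a contrast, then those in most libraries. From each list of other genes at most 2 were named by smallest p for SOX2. From the caudal list, the 2 genes stronger at high SOX2 for β-catenin were named as well. Nanog and Klf4 were named only as examples of their list. The members and lists were chosen with earlier results of these data known. The scripts ran in Python 3.11.15 with numpy 2.4.6 and pandas 2.3.3, and were tested on simulated data. No peak lay past a GRCm38 chromosome end. Alternatives varied the list length, ranking, q-value minimum, window, linking distance, coding-exon summits, replicate block and libraries used.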

Additional observations from a re-analysis of the deposited data

Results flagged for a closer look

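Esrrb and Prdm14 were singled out for SOX2 because the contrasts of the 2 cell lines went in opposite directions in every library. Only the wild-type contrast also changed medium and cell state, so the effects of these and of the line cannot be told apart. At Esrrb all naive ESC ranks were stronger than all CEpiLC ranks while all SOX2-ON ranks were weaker than all SOX2-OFF ranks, and the wild-type difference minus the SOX2-TetON difference in log10 rank was -1.38 (exact permutation p = 0.005, adjusted p = 0.217 over all genes). At Prdm14 the same value was -1.2 (exact permutation p = 0.105, adjusted p = 0.421). Neither passed after adjustment. Groups of 3 libraries were not tested for single deviating libraries.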

How the results depend on the processing

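The 13 gene and target pairs at an unadjusted p of at most 0.05 in the exact permutation test kept their direction in all 176 values under the alternatives, with 0 reversed. The adjusted p fell to 0.05 or less in 5 of them, all at Tbx3, with a lowest value of 0.0315. Of the 13, 7 stayed at an unadjusted p of at most 0.05 with equal lists, 8 with 5000 peaks, 10 with 10000 peaks and 10 with the log2 fold. Over all genes, 0 windows were called for each target, and under the alternatives 879 for SOX2 and 994 for β-catenin with 5000 peaks, 1215 for β-catenin with 10000, 834 for β-catenin with equal lists, and 1959 for SOX2 with a window of 50 kb. At an unadjusted p of at most 0.05 4677 windows passed for SOX2 and 4611 for β-catenin, while LEF1 had 1946, TCF7L1 2979 and TCF7L2 1941. Without a replicate number the test has too few assignments to reach 0.05, so it says nothing on stability.

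Naive-only sites, 43 in the report, were 20 with equal lists and 45 to 58 without a replicate number. CEpiLC-only sites, 0 in the report, were 1 with 5000 peaks, with equal lists and with ranking by −log10 p, 2 with 50 kb, and 3 to 8 without a replicate number. SOX2-ON-only sites, 2 in the report, were 1 with 5000 and 10000 peaks and with absence in all peaks, 0 with equal lists and 10 kb, 5 with 50 kb, and 6 to 14 without a replicate number. SOX2-OFF-only sites, 1 in the report, were 0 with 5000 and 10000 peaks, equal lists, a −log10 q minimum of 5, linking over 100 bp and absence in all peaks, and 1 to 4 without a replicate number. Leaving a replicate number out loosens the rule to 2 of 2 libraries. Among the alternatives, shares over all sites were computed only for equal lists and 5000 peaks. The other alternative counts therefore cannot be set beside the genome. Without 6 short or deviating libraries (the 5 lists under 5000 peaks and naive ESC LEF1 replicate 1), a choice made after seeing the data, naive-only was 45, CEpiLC-only 3, SOX2-ON-only 2 and SOX2-OFF-only 3. The cause was not tested.

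With the replicate block, 0 windows were called for each target, and 6 of the 13 pairs stayed at an unadjusted p of at most 0.05 (Tbx3 with SOX2, β-catenin and TCF7L1, Prdm14 with TCF7L1, and Esrrb and Tfcp2l1 with TCF7L2). Same-numbered libraries of the contrasts correlated in their deviations over genes at over 0.1 in 3 of 30 cases, all for TCF7L1 in the SOX2-TetON line, so the numbers were not taken as pairing in the test, which spans both cell lines. At an unadjusted p of at most 0.05 the block left 2324 windows for SOX2, 1944 for β-catenin and 1173 for TCF7L1.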
